A study of Mus musculus with 11 samples.

Results

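Interferon-stimulated genes were examined in RNA from whole mouse hearts. The set holds 46 genes, chosen by symbol as known interferon-stimulated genes, out of 54532 genes in the count table. All 46 symbols were found, and 45 passed the filter on low counts. Oas3, a synthase of oligoadenylates, did not, at 0 to 0.501 CPM (counts scaled to a common library size by the TMM method) over the 11 libraries.

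Interferons are secreted proteins that warn tissue of infection or of misplaced nucleic acid. Type I interferons bind the receptor pair Ifnar1 and Ifnar2, which activates Jak1 and Tyk2 and, through them, a complex that holds Stat2 and Irf9. That complex binds the interferon-stimulated response element, a short repeated DNA motif in the promoters of its targets, while factors activated by interferon gamma bind the GAS element. The induced proteins sense, bind, edit or degrade foreign RNA, hinder the assembly and release of viruses, or tune the response itself. In heart they are made by cardiomyocytes, endothelial cells, fibroblasts and resident macrophages, at a low level without infection.

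The hearts were taken from C57BL/6 mice with a label of 26 weeks, and the labels do not say whether that is an age or a length of treatment. The chow group holds 3 libraries and the HFD+STZ group 4, which the labels do not spell out; in work on diabetes, HFD is commonly fat-rich feeding and STZ streptozotocin, which kills insulin-producing beta cells. A further 4 libraries carry HFD+STZ together with AAV METTL3 and are called METTL3 here. AAV is commonly an adeno-associated virus and METTL3 the enzyme that methylates adenosines in messenger RNA, so every METTL3 heart shares the diabetic treatment of the HFD+STZ hearts. The labels give no promoter or serotype of the virus, no control virus for the other groups, no sex and no pooling of animals. Nothing beyond the replicate number says that libraries of a group came from separate mice, and the p-values therefore reflect the spread among these samples, which may be a technical one.

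Libraries held 13900531 to 16952639 counts, and mitochondrial genes took 9.28% to 27.4% of them on chow, 28.6% to 32.5% in HFD+STZ and 37.7% to 45.5% in METTL3. Mettl3 itself (ENSMUSG00000022160, chr14:52294841-52305128) was at 6.35 ± 1.58 CPM (SD, n = 4) in HFD+STZ and 8.39 ± 2.19 CPM (SD, n = 4) in METTL3 libraries. Its log2 fold change was 0.40 (SE 0.32, 95% interval -0.30 to 1.09, edgeR adjusted p = 0.759), so a rise was not detectable and each direction given for METTL3 hearts rests on the label. Summed cardiomyocyte markers (7 genes such as Myh6 and Tnnt2) lay at 29595 to 41853 CPM in all libraries, which fits the labelled tissue. Chow replicate 3 stood apart, with 9.28% mitochondrial counts and 15734 genes with a count, where the other 10 libraries had 17317 to 20769. The main comparisons with chow are therefore also given without it. Sample codes in the labels run either from 25 to 33 or from 78 to 98. All chow libraries belong to the higher codes, with HFD+STZ replicate 1 and METTL3 replicate 4, so diet and code range can be told apart only through those 2 libraries.

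In hearts of the diabetic model most interferon-stimulated genes had lower mean levels than on chow, but a single member passed the test. Oas1a fell 5.01-fold, to 0.950 ± 0.197 CPM (SD, n = 4) where chow hearts had 4.80 ± 1.502 CPM (SD, n = 3), and was the member past the threshold (Benjamini-Hochberg adjusted p under 0.05 over 14862 genes, edgeR quasi-likelihood test). Isg15 was lower by a similar factor, 5.13-fold, and stood just above the threshold at an adjusted p of 0.0557. Of 45 tested members 1 passed, against 0.168% of all genes tested, of which 0.0336% were lower. The log2 fold change was below 0 in 39 of the 45 members (51.6% of all genes), with a median of -0.47 (all genes -0.018) and a range of -2.36 to 0.48.

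Before adjustment 16 members had a p under 0.05 and lay lower, against 6.53% of all genes, and 0 lay higher, against 5.58%. The 16 became 9 without HFD+STZ replicate 3 and 10 without chow replicate 2, and 11 to 18 without any other single library, with 0 higher in each case. In those fits 7.43%, 13.1% and 8.04% to 19.4% of all genes had such a p in either direction. In 15 members all HFD+STZ libraries lay below all chow libraries, where 4.88% of all genes did, and in 0 above, where 5.52% did. These were Isg15, Usp18, Oas1a, Oasl2, Ifit1, Ifit2, Ifit3, Ifih1, Irgm1, Gbp3, Bst2, Ifi27l2a, Ifi44, Rtp4 and Xaf1. Without chow replicate 3 the number was 28 lower, against 11% of all genes, and 0 higher, against 10.3%.

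**Figure D1:**
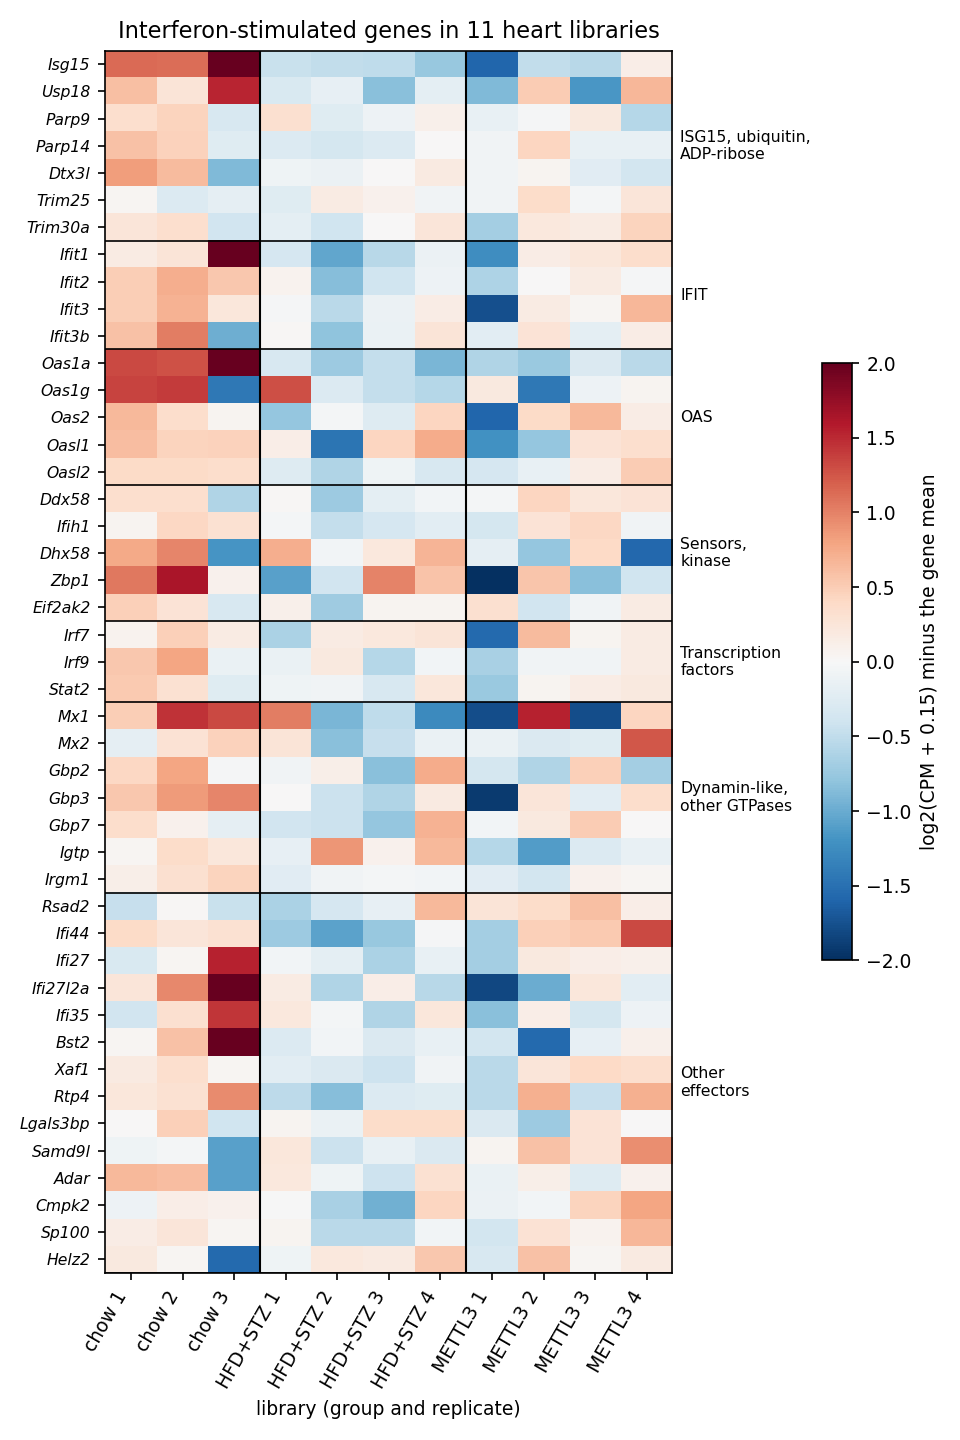
Levels of the 45 tested interferon-stimulated genes in each library, as log2(CPM + 0.15) minus the mean of that gene over 11 libraries, grouped by role; columns are libraries, and colours stop at -2 and 2. The chow columns are mostly red and the HFD+STZ columns more often blue, apart from HFD+STZ replicate 4, which is mixed. Chow replicate 3 holds both the darkest reds (Isg15, Ifit1, Oas1a, Ifi27l2a, Bst2) and several blues (Oas1g, Helz2, Adar, Dtx3l).

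Isg15 and its enzymes form the first group of roles. Isg15 (ENSMUSG00000035692, chr4:156199424-156200818, minus strand) encodes a ubiquitin-like protein that is attached to other proteins. It was at 4.46, 4.41 and 11.1 CPM in chow replicates 1 to 3, at 1.40, 1.34, 1.32 and 1.10 CPM in HFD+STZ, and at 0.548, 1.34, 1.28 and 2.15 CPM in METTL3. Every diabetic library, with or without AAV METTL3, lay below every chow library, and chow replicate 3 was far above the other chow libraries. The counts behind these values were 82 to 197 on chow, 18 to 25 in HFD+STZ and 7 to 24 in METTL3. The log2 fold change of HFD+STZ against chow was -2.36 (SE 0.46). Without chow replicate 3 it was -1.77 (edgeR adjusted p = 0.114), and without HFD+STZ replicate 1 it passed, at -2.40 (edgeR adjusted p = 0.0480).

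Usp18, the protease that removes Isg15 and restrains the type I receptor, had a log2 fold change of -1.30 (SE 0.49, edgeR adjusted p = 0.342), and of -0.81 without chow replicate 3. The ADP-ribosyltransferases Parp9 (-0.16) and Parp14 (-0.53), the ubiquitin ligase Dtx3l (-0.38), which works with Parp9, and the ligases Trim30a (-0.17) and Trim25 (0.12) had smaller values, and none passed. Dtx3l was at 24.1 and 21.0 CPM in the first and second chow libraries but at 7.21 CPM in chow replicate 3, with 12.4 to 15.2 CPM in HFD+STZ and 10.4 to 14.0 CPM in METTL3. It therefore overlapped with chow only through that library. Without it the log2 fold change of Dtx3l was -0.74 (SE 0.17, edgeR adjusted p = 0.0991). In the group of 7, 6 were below 0, with a median of -0.38 and of -0.73 without chow replicate 3.

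The OAS genes encode enzymes that, on meeting double-stranded RNA, make oligoadenylates that switch on the ribonuclease RNase L. Oas1a (ENSMUSG00000052776, chr5:120896256-120907521, minus strand) was at 3.99, 3.87 and 6.53 CPM on chow, at 1.17, 0.851, 1.05 and 0.730 CPM in HFD+STZ, and at 0.940, 0.836, 1.21 and 0.986 CPM in METTL3. The 8 diabetic libraries lay close together and well below the 3 chow libraries. The log2 fold change of HFD+STZ against chow was -2.33 (SE 0.37, edgeR adjusted p = 0.0309), and -2.03 without chow replicate 3 (edgeR adjusted p = 0.0380). The call was lost, with edgeR adjusted p of 0.0586 to 0.138, on leaving out chow replicate 1 or 2, HFD+STZ replicate 2, 3 or 4, or METTL3 replicate 1, 3 or 4, while the log2 fold change stayed between -2.44 and -2.03.

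Oas1a has a close copy in its neighbour Oas1g, and 68.7% of the 31-base words of its annotated transcripts also occur in those of Oas1g, so the split of reads between them is uncertain. The summed level of the pair was 4.87, 4.78 and 6.53 CPM on chow, 2.01, 1.03, 1.18 and 0.852 CPM in HFD+STZ, and 1.25, 0.836, 1.43 and 1.25 CPM in METTL3. The sum separated chow from the diabetic libraries as Oas1a did. Oas1g alone rested on 0 to 17 counts, and its log2 fold change of -0.87 had an SE of 1.08. Oasl2 (-0.69, SE 0.24, edgeR adjusted p = 0.309), Oas2 (-0.47) and Oasl1 (-0.38) did not pass. Oasl2 was at 9.74 to 9.95 CPM on chow and at 4.93 to 7.11 CPM in HFD+STZ, without overlap. The log2 fold changes of all 5 tested OAS genes were below 0, with a median of -0.69, and of -0.70 without chow replicate 3.

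The IFIT proteins bind foreign RNA that lacks the marks of a cell's own cap. Ifit2 (ENSMUSG00000045932, chr19:34550694-34576419) was at 18.8, 21.9 and 19.2 CPM on chow, at 13.8, 7.24, 10.04 and 12.3 CPM in HFD+STZ, and at 8.62, 13.3, 14.9 and 13.0 CPM in METTL3. Its chow libraries lay close together, and all diabetic libraries were lower. Its log2 fold change was -0.88 (SE 0.24, edgeR adjusted p = 0.202), and -0.90 without chow replicate 3.

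Ifit1 (ENSMUSG00000034459, chr19:34640871-34650009) was at 6.89, 7.37 and 27.5 CPM on chow, at 4.80, 2.92, 4.11 and 5.66 CPM in HFD+STZ, and at 2.51, 6.77, 7.17 and 7.89 CPM in METTL3. The HFD+STZ libraries were all below chow, but the size of the difference came largely from chow replicate 3, with a log2 fold change of -1.67 (SE 0.49, edgeR adjusted p = 0.234) that became -0.70 without it. Ifit3 was at 9.07, 10.5 and 7.54 CPM on chow, at 6.31, 4.38, 5.92 and 7.18 CPM in HFD+STZ, and at 1.80, 7.19, 6.64 and 10.3 CPM in METTL3 (HFD+STZ against chow -0.60, SE 0.41, edgeR adjusted p = 0.548). Ifit3 shares 61.8% of its words with its copy Ifit3b (-0.58), and the sum of the pair was 11.7 ± 3.08 CPM (SD, n = 3) on chow, 7.71 ± 1.71 CPM (SD, n = 4) in HFD+STZ and 8.43 ± 3.75 CPM (SD, n = 4) in METTL3. The 4 genes had a median of -0.74 and of -0.80 without chow replicate 3.

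Promoter sequences show what these genes share in their DNA. RefSeq promoters of the GRCm38.p6 build, which run from 250 bases before to 50 bases after the start, were matched by symbol for 35 of the 46 members (42 promoters). The core of the interferon-stimulated response element, GAAANNGAAA on either strand, occurred in 47.6% of those promoters and in 3.44% of all 32851. The GAS motif, TTCNNNGAA, which reads alike on both strands, occurred in 19% of the members' promoters and in 8.3% of all. The members are known for this motif, so its share describes the list and not the change in these hearts. The stretches below were taken only from members with a match. They belong to Isg15 and Oas1a, which passed a test, and to Oas1g, the close copy of Oas1a. Others belong to Ifit1, Bst2 and Igtp, each among the 6 members of smallest p in a comparison, and to Rsad2, which lay above chow in METTL3. All stretches are written 5′ to 3′ on the strand of the gene, with capitals for the matched core.
Isg15, chr4:156200863-156200908, minus strand: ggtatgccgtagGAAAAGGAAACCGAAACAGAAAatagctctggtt
Oas1a, chr5:120907526-120907557, minus strand: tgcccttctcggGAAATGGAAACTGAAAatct
Oas1g, chr5:120887614-120887643, minus strand: tgcccttctcggGAAATGGAAACTGAAAat
Ifit1, chr19:34640773-34640825, plus strand: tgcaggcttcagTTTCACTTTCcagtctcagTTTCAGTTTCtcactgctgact
Bst2, chr8:71537575-71537614, minus strand: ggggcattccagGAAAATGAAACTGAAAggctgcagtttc
Igtp, chr11:58199510-58199543, plus strand: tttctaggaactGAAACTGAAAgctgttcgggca
Rsad2, chr12:26456551-26456584, minus strand: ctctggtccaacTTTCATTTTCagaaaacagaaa

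Isg15 holds 3 overlapping matches, which begin 78 to 66 bases before its start, and Oas1a 2, which begin 20 and 14 bases before its start. The close copies Oas1a and Oas1g thus carry the motif at nearly the same place. The 18 tested members with a match had a median log2 fold change of -0.46 in HFD+STZ against chow, the 16 with a promoter but no match of -0.38, and the 11 with no promoter in the table of -0.91. Samd9l, described below, and Ifit2, Ifi44, Sp100 and Xaf1 were also among the 6 members of smallest p in a comparison. Their promoters had no match, which says only that these letters are not in those windows.

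Among the sensors of foreign nucleic acid, Ddx58 (RIG-I) and Ifih1 (MDA5) detect viral RNA and signal through Mavs. Ifih1 was at 12.1, 15.5 and 14.4 CPM on chow, at 11.3, 8.33, 9.20 and 9.98 CPM in HFD+STZ, and at 9.09, 14.0, 15.6 and 11.1 CPM in METTL3. HFD+STZ lay below chow without overlap and METTL3 overlapped with chow. Ddx58 was at 22.4, 22.5 and 11.7 CPM on chow, at 18.1, 10.7, 15.5 and 17.04 CPM in HFD+STZ, and at 17.2, 24.1, 20.9 and 21.5 CPM in METTL3, so that only chow replicate 3 kept HFD+STZ from lying below chow. Eif2ak2, the kinase PKR that halts translation, was at 13.2, 11.5 and 7.49 CPM on chow, at 10.1, 5.72, 9.83 and 9.80 CPM in HFD+STZ, and at 11.8, 7.19, 8.99 and 10.6 CPM in METTL3. Its groups overlapped. The log2 fold changes of HFD+STZ against chow were -0.53 for Ifih1, -0.30 for Ddx58, -0.27 for Eif2ak2, -0.96 for Zbp1, a sensor of unusual nucleic acid structures, and -0.04 for Dhx58, a helper of Ifih1. None of the 5 passed (edgeR, 1 at an unadjusted p under 0.05, and 0 called by DESeq2), and their median was -0.30, or -0.50 without chow replicate 3.

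Irf9, Stat2 and Irf7 are the transcription factors of the list. Irf9 was at 21.8, 25.8 and 13.6 CPM on chow, at 13.5, 17.1, 9.97 and 14.4 CPM in HFD+STZ, and at 9.48, 14.2, 14.2 and 16.7 CPM in METTL3. Stat2 was at 23.7, 20.3 and 13.9 CPM on chow, at 15.5, 15.6, 13.1 and 19.2 CPM in HFD+STZ, and at 9.79, 17.05, 18.2 and 18.9 CPM in METTL3. Both lay higher in chow replicates 1 and 2 than in any diabetic library, and chow replicate 3 lay among the diabetic libraries. Irf7, which amplifies interferon production, was at 9.22, 12.4 and 9.85 CPM on chow, at 5.64, 9.91, 10.2 and 10.5 CPM in HFD+STZ, and at 2.90, 13.7, 9.21 and 9.95 CPM in METTL3. The log2 fold changes of HFD+STZ against chow were -0.57 (SE 0.26) for Irf9, -0.28 (SE 0.25) for Stat2 and -0.21 (SE 0.39) for Irf7, and 0 of the 3 passed by edgeR (adjusted p of 0.412 to 0.848, with 1 at an unadjusted p under 0.05) or by DESeq2. The values without chow replicate 3 were -0.78, -0.47 and -0.25, and none passed.

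The interferon-induced GTPases attack viruses or the membranes around microbes. Gbp2, a guanylate-binding protein, was at 14.3, 18.5 and 10.5 CPM on chow, at 10.2, 11.6, 5.92 and 18.0 CPM in HFD+STZ, and at 8.38, 7.02, 14.95 and 6.63 CPM in METTL3. Its groups overlapped widely. Mx1, whose allele is known to be defective in this strain, was at 0.570, 1.24 and 1.13 CPM on chow, at 0.893, 0.122, 0.209 and 0.0609 CPM in HFD+STZ, and at 0, 1.34, 0 and 0.538 CPM in METTL3. With 0 to 23 counts a library, no difference of Mx1 was detectable at this depth. Gbp3 (-0.98, SE 0.39) and Irgm1 (-0.40, SE 0.17) lay lower in HFD+STZ than on chow without overlap, at edgeR adjusted p of 0.358 and 0.377 (-0.88 and -0.31 without chow replicate 3). Mx2 (-0.48) and Gbp7 (-0.22) did not pass either. The 7 GTPases had a median of -0.40, or -0.33 without chow replicate 3, and Igtp was above 0 (0.20).

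Of the other effectors, Bst2, or tetherin, which holds budding viruses at the cell surface, was at 13.1, 19.2 and 56.2 CPM on chow, at 10.6, 12.3, 10.5 and 11.6 CPM in HFD+STZ, and at 9.87, 4.26, 11.4 and 13.7 CPM in METTL3. Ifi27l2a, a small membrane protein gene, was at 9.28, 15.4 and 43.0 CPM on chow, at 8.77, 5.11, 8.57 and 5.30 CPM in HFD+STZ, and at 2.12, 3.84, 9.14 and 6.72 CPM in METTL3. In both genes chow replicate 3 was the highest library by far and the HFD+STZ libraries lay below chow. Their log2 fold changes were -1.39 (SE 0.44, edgeR adjusted p = 0.267) and -1.70 (SE 0.51, edgeR adjusted p = 0.242), and -0.52 and -0.83 without that library. Chow replicate 3 was also the highest library for the short genes Ifi27 (-0.91, and -0.12 without it) and Ifi35 (-0.67, and -0.02 without it). In these genes, though, the HFD+STZ libraries overlapped with chow.

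Cmpk2, a mitochondrial nucleotide kinase, had a log2 fold change of -0.24 and did not pass. Adar, which edits adenosines in double-stranded RNA, moved the opposite way with that library. It was at 19.5, 19.1 and 5.80 CPM on chow, at 14.4, 11.7, 9.34 and 15.4 CPM in HFD+STZ, and at 11.4, 13.5, 10.4 and 13.2 CPM in METTL3. Its log2 fold change in HFD+STZ was -0.22 (SE 0.34, edgeR adjusted p = 0.805), and -0.59 without chow replicate 3 (edgeR adjusted p = 0.312). Rsad2, or viperin, was at 12.1, 17.04 and 12.3 CPM on chow, at 10.8, 13.3, 14.9 and 26.4 CPM in HFD+STZ, and at 20.2, 21.8, 25.7 and 18.5 CPM in METTL3. It was among the 4 of 14 other effectors above 0 in HFD+STZ against chow (0.24), with Helz2 (0.48), Samd9l (0.19) and Lgals3bp (0.11), and none of these passed.

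**Figure D2:**
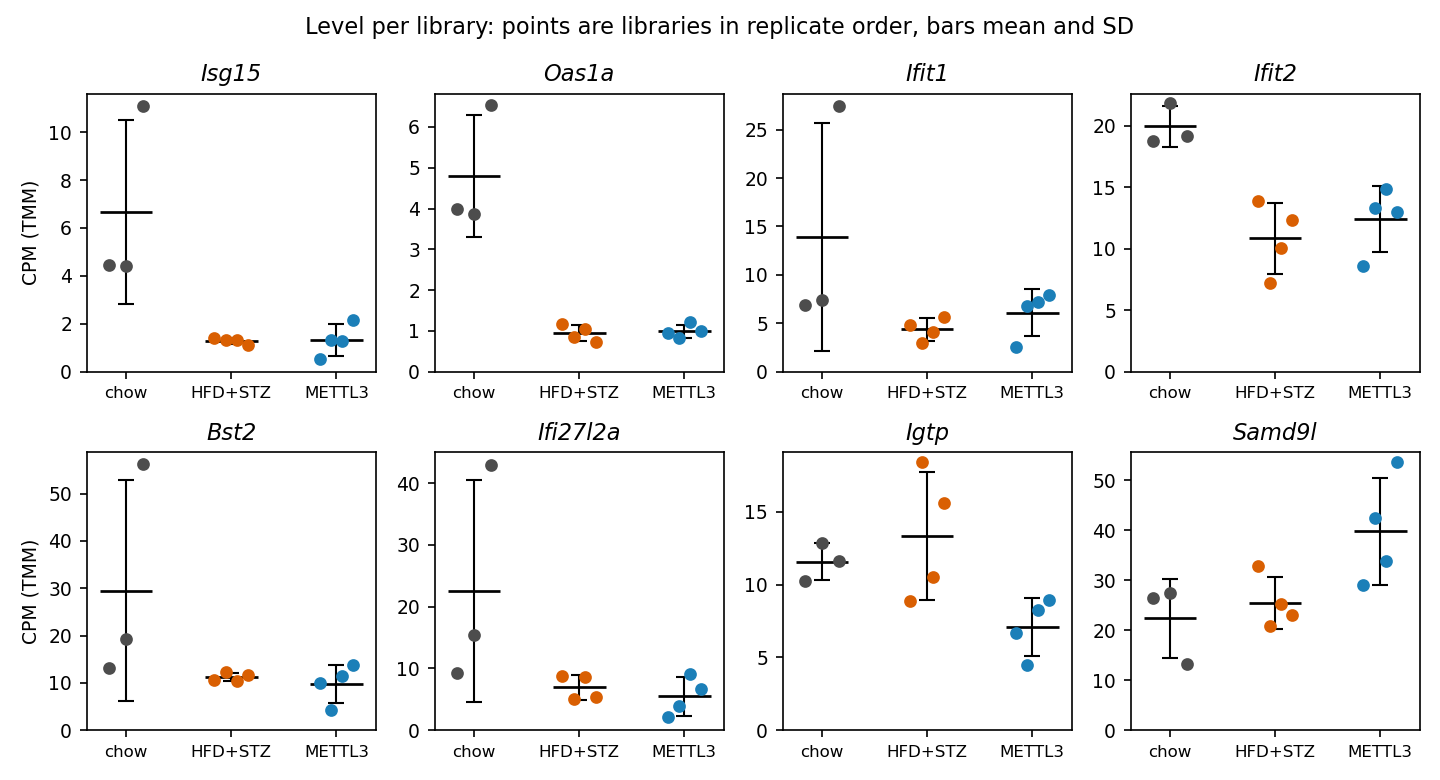
Level in CPM (TMM) of 8 interferon-stimulated genes; each point is a library, in replicate order within its group, and bars are the mean and SD (chow n = 3, HFD+STZ n = 4, METTL3 n = 4). Isg15 and Oas1a lie below chow in all 8 diabetic libraries, chow replicate 3 carries much of the chow mean of Ifit1, Bst2 and Ifi27l2a, and Igtp and Samd9l overlap between METTL3 and HFD+STZ.

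The departure of chow replicate 3 went in part with the length of the gene. Against the mean of the other chow libraries, the 7 tested members shorter than 2000 bases had a median log2 difference of 1.46, and the 29 of at least 3000 bases of -0.41. Over all genes tested these medians were 0.74 and -0.27, so the library differed in the same direction across the genome. Across the 45 members, which are not independent replicates and share this library, the Spearman correlation of length and difference was -0.46, and -0.30 across all genes. Of the 7 short members Isg15, Oas1a, Bst2, Ifi27l2a, Ifi27 and Ifi35 were high in it and Ifit3 was not (-0.37), and the long members Adar, Helz2 and Dtx3l were low in it. Members from 2000 to 3000 bases went either way, such as Ifit1 (1.93), Ifit3b (-1.80) and Oas1g (-2.99, few counts). RNA quality was not measured in the sources used here, and its part in these values was not tested.

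**Figure D3:**
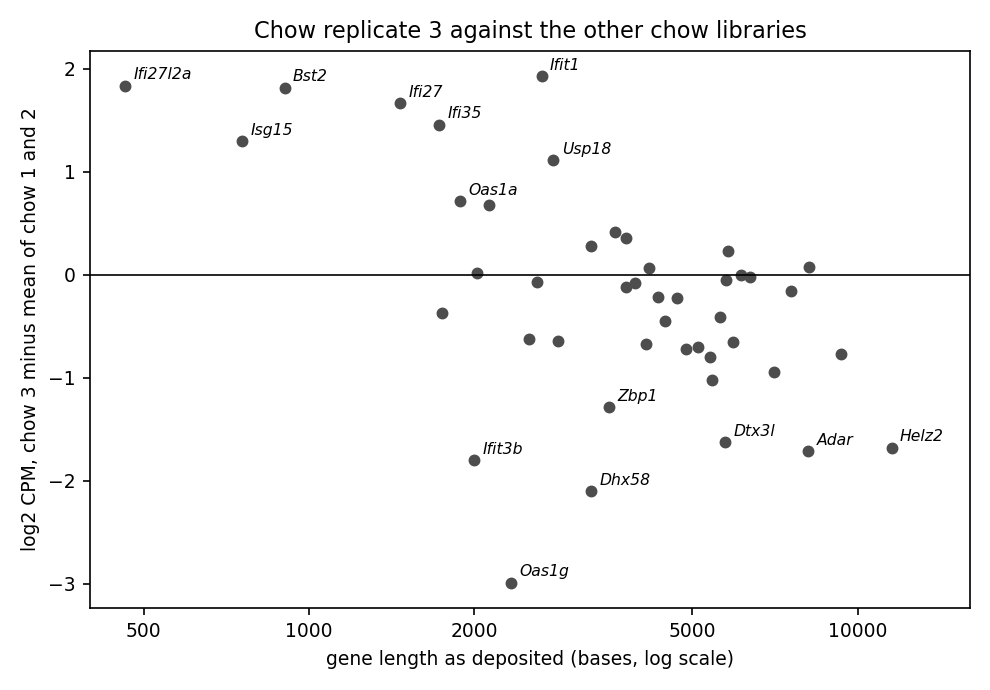
Difference between chow replicate 3 and the mean of chow replicates 1 and 2 in log2 CPM (vertical axis) against gene length in bases on a log scale (horizontal axis) for 45 interferon-stimulated genes. Short genes such as Ifi27l2a, Bst2 and Isg15 lie above 0, and long genes such as Adar, Dtx3l and Helz2 lie below. Genes of intermediate length lie on both sides, with Ifit1 above and Ifit3b and Oas1g below.

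The libraries can also be read singly against chow. Of the 45 tested members, 25 lay below all chow libraries in HFD+STZ replicate 1, whose code is in the range of the chow libraries, or 55.6%, where 17.3% of all genes tested did. In METTL3 replicate 4, also in that range, it was 14 members or 31.1%, where 24.4% of all genes did. The libraries with codes 25 to 33 had 27, 28 and 17 such members in HFD+STZ (22.8%, 25.5% and 24.1% of all genes) and 29, 16 and 17 in METTL3 (25.5%, 24.3% and 25.2% of all genes), each in replicate order. Above all chow libraries lay 1, 3, 1 and 6 members in HFD+STZ replicates 1 to 4 (21%, 23.4%, 25.1% and 25.4% of all genes). In METTL3 replicates 1 to 4 it was 2, 9, 8 and 10 (27.5%, 26.7%, 28.4% and 27.9% of all genes). When code range entered the fit as a covariate, the log2 fold changes of HFD+STZ against chow were -1.91 for Isg15 (edgeR adjusted p = 0.817) and -2.17 for Oas1a (edgeR adjusted p = 0.592), and 0 members passed, with 3 lower and 0 higher at an unadjusted p under 0.05, where 4.99% of all genes were in either direction. By the mean of log2 CPM centred on each gene, the 45 members lay at 0.38 ± 0.14 (SD, n = 3) on chow, -0.16 ± 0.19 (SD, n = 4) in HFD+STZ and -0.12 ± 0.34 (SD, n = 4) in METTL3. The HFD+STZ libraries ran from -0.37 to 0.05, with replicate 4 the highest of them. METTL3 replicate 1 was lowest at -0.62, and was the lowest of 11 libraries in 15 members.

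The comparison of METTL3 with HFD+STZ asks what AAV METTL3 changed in diabetic hearts. No interferon-stimulated gene passed (edgeR, 0 of 45, where 0% of all genes tested passed), and DESeq2 also called 0 of them. Before adjustment 2 lay higher at a p under 0.05, against 5.43% of all genes, and 1 lower, against 3.63%. Without METTL3 replicate 1 it was 7 higher and 1 lower, against 8.25% of all genes in either direction, with 13 members below 0 and 0 called by edgeR. Leaving out chow replicate 3 or HFD+STZ replicate 4 gave 4 higher, and any other single library 1 to 3. In those fits 17.1%, 5.51% and 5.57% to 11% of all genes had such a p in either direction. With all libraries the log2 fold changes ran from -0.91 to 1.20 with a median of 0.12 (all genes -0.0036), 28 above and 17 below 0, where 50.4% of all genes were below 0. In 0 members did the groups not overlap, where 5.43% of all genes lay higher and 4.14% lower without overlap. Isg15 (0.04, SE 0.45, 95% interval -0.93 to 1.01) and Oas1a (0.06, SE 0.36, 95% interval -0.73 to 0.85) were at like levels in both groups, though these intervals leave room for a change near 2-fold.

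Igtp, an immunity-related GTPase that guards membranes, was at 8.88, 18.4, 10.5 and 15.6 CPM in HFD+STZ and at 6.66, 4.51, 8.23 and 8.96 CPM in METTL3, with 10.3, 12.8 and 11.7 CPM on chow. A single METTL3 library reached the lowest HFD+STZ library. Its log2 fold change was -0.91 (SE 0.27, edgeR adjusted p = 0.384), and 15.9% of its words are shared with Irgm2. Ifi44, a cytoplasmic protein gene, was at 2.35, 1.82, 2.30 and 3.90 CPM in HFD+STZ and at 2.43, 5.60, 5.81 and 10.1 CPM in METTL3, with 5.23, 4.73 and 4.95 CPM on chow. METTL3 replicate 1 stayed among the HFD+STZ libraries while the other METTL3 libraries were above them, and the log2 fold change was 1.20 (SE 0.39, edgeR adjusted p = 0.408). Samd9l, which restrains protein synthesis and growth, was at 32.8, 20.9, 25.2 and 22.9 CPM in HFD+STZ and at 29.1, 42.4, 33.9 and 53.6 CPM in METTL3, with 26.4, 27.4 and 13.2 CPM on chow. Its log2 fold change was 0.64 (SE 0.26, edgeR adjusted p = 0.505), and HFD+STZ replicate 1 overlapped with METTL3.

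Sp100, a nuclear body protein gene, was at 31.4, 20.8, 20.8 and 29.2 CPM in HFD+STZ and at 23.5, 36.9, 31.6 and 47.8 CPM in METTL3, with 33.4, 35.8 and 31.02 CPM on chow. Rtp4, a chaperone gene of membrane receptors, was at 3.96, 3.10, 4.74 and 4.81 CPM in HFD+STZ and at 3.92, 9.53, 4.15 and 9.50 CPM in METTL3, with 6.74, 7.10 and 11.1 CPM on chow. Xaf1, a gene of a death-promoting protein, was at 19.9, 18.8, 17.4 and 21.9 CPM in HFD+STZ and at 15.7, 27.3, 30.4 and 29.2 CPM in METTL3, with 26.1, 29.2 and 23.6 CPM on chow. In all 3 genes METTL3 replicate 1 lay within or below the HFD+STZ libraries, and at least 2 other METTL3 libraries lay above them. The log2 fold changes were 0.45 for Sp100, 0.70 for Rtp4 and 0.40 for Xaf1 (edgeR adjusted p of 0.565 to 0.590). By role, the medians of METTL3 against HFD+STZ were 0.17 for the IFIT genes, 0.06 for OAS, 0.12 for sensors, -0.01 for transcription factors, 0.01 for GTPases, 0.15 for Isg15 and its enzymes and 0.31 for other effectors.

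Within codes 25 to 33, with 3 libraries a group, 0 of 43 tested members passed (edgeR), 2 lay higher and 1 lower at an unadjusted p under 0.05, where 17.6% of all genes were in either direction, and 20 were below 0. With chow replicate 3 and HFD+STZ replicate 1 left out together, Samd9l rose and Igtp fell past the threshold (edgeR adjusted p of 0.0468 and 0.0397), among 403 genes in all. Leaving out either library alone called 0 members.

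**Figure D4:**
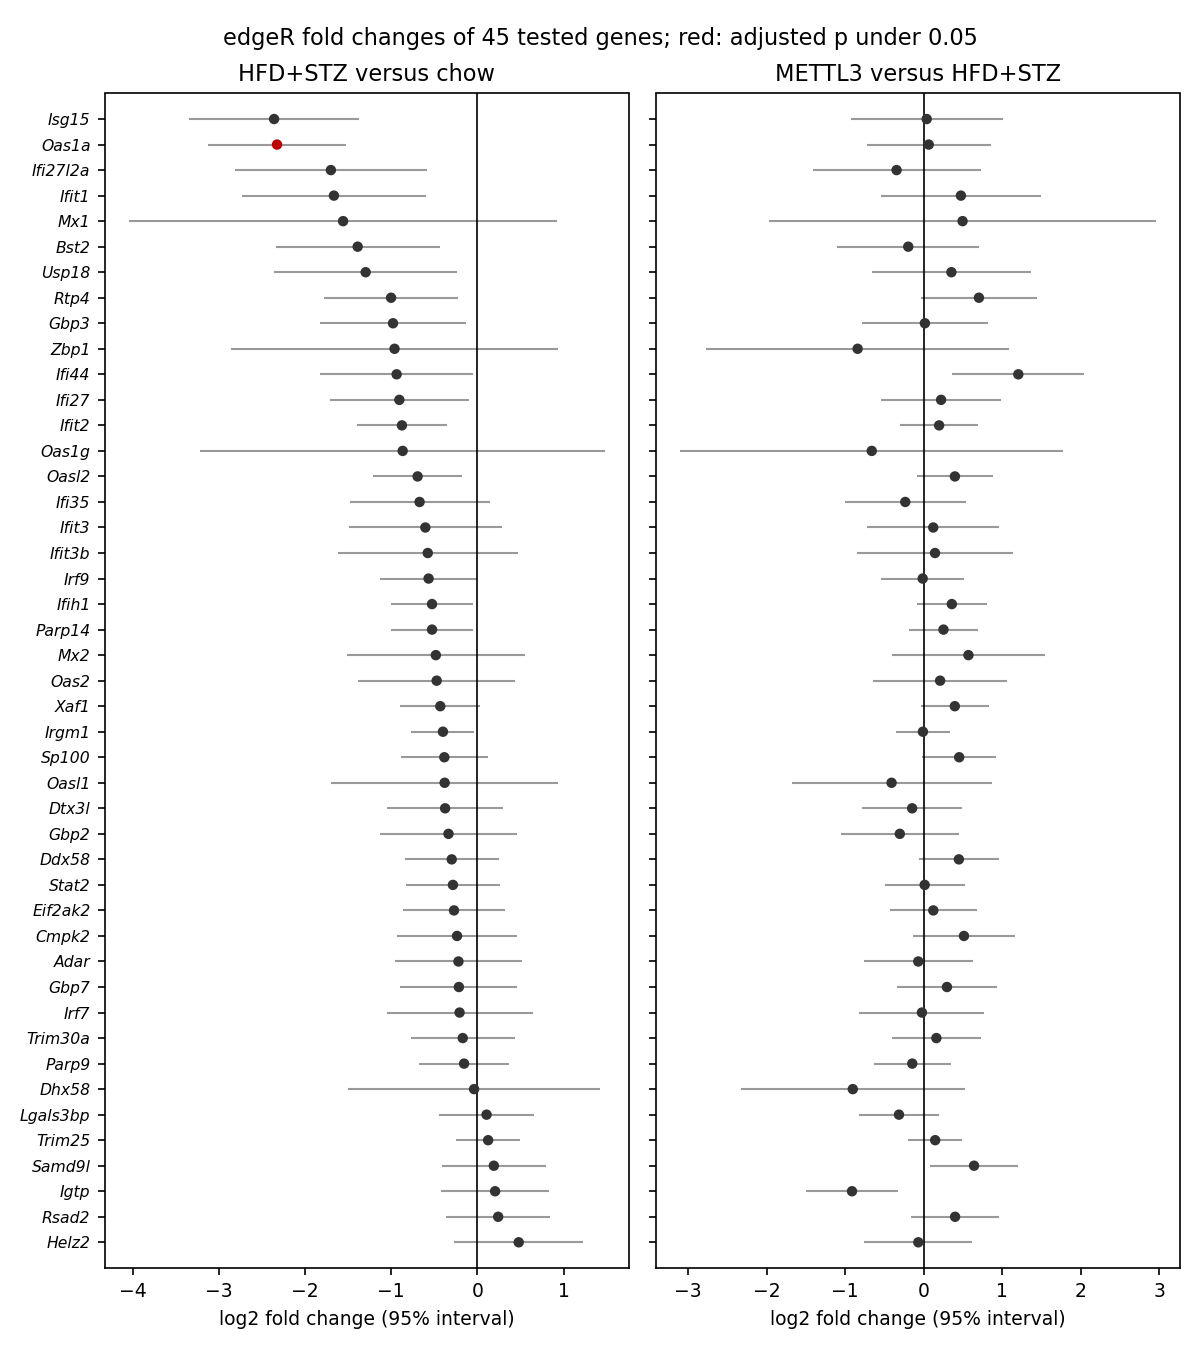
Log2 fold changes with 95% intervals (horizontal axes) of 45 interferon-stimulated genes, ordered from top to bottom by the value in HFD+STZ against chow, for HFD+STZ against chow (left) and METTL3 against HFD+STZ (right); red marks an adjusted p under 0.05. On the left 39 of 45 values lie below 0 and Oas1a is red, and on the right no value is red and the points lie on both sides of 0.

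METTL3 hearts were also compared with chow; this comparison shares its chow libraries with that of HFD+STZ and its METTL3 libraries with the preceding one. Isg15 fell 4.999-fold (log2 fold change -2.32, SE 0.46, edgeR adjusted p = 0.0279) and Oas1a fell 4.80-fold (-2.26, SE 0.38, edgeR adjusted p = 0.0160). These 2 of 45 members passed, both lower, where 3.20% of all genes tested did, 1.82% higher and 1.37% lower. Over all genes the calls split into 271 higher and 204 lower, but into 188 higher and 248 lower with upper-quartile scaling, under which Isg15 and Oas1a also passed. Without chow replicate 3 Isg15 (-1.75, edgeR adjusted p = 0.0373), Oas1a (-1.98, edgeR adjusted p = 0.0161) and Dtx3l (-0.90, edgeR adjusted p = 0.0144) passed, where 4.92% of all genes did. Isg15 lost its call without chow replicate 2 or any METTL3 replicate (edgeR adjusted p of 0.0571 to 0.0756), and Oas1a without chow replicate 2 or METTL3 replicate 4 (0.0535 and 0.0571). With the code range as a covariate neither passed (edgeR adjusted p of 0.200 for Isg15 and 0.153 for Oas1a).

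Before adjustment 11 members lay lower than chow at a p under 0.05, against 11.1% of all genes, and 2 higher, Samd9l and Rsad2, against 10.6%. The 11 became 6 without METTL3 replicate 1 and 17 without chow replicate 3. In those fits 18.4% and 22.4% of all genes had such a p in either direction. Of the 45 members 35 were below 0 (50.8% of all genes), with a median of -0.30 (all genes -0.011). In 8 members METTL3 lay below chow without overlap, where 8.26% of all genes did. They were Isg15, Oas1a, Oasl1, Ifit2, Ifi27l2a, Gbp3, Igtp and Irgm1. Samd9l (0.83, SE 0.28, edgeR adjusted p = 0.117) and Rsad2 (0.64, SE 0.28, edgeR adjusted p = 0.208) lay above chow without overlap, where 10.5% of all genes did. Without chow replicate 3 it was 18 lower and 2 higher, against 16.9% of all genes in each direction. Ifi27l2a (-2.05, edgeR adjusted p = 0.0538) and Bst2 (-1.59, edgeR adjusted p = 0.0689) stood just above the threshold, passed without chow replicate 1 (edgeR adjusted p of 0.0253 and 0.0268), and had log2 fold changes of -1.19 and -0.73 without chow replicate 3.

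On a scale of CPM per kilobase of gene length, averaged over the 11 libraries, the levels of members ran from 23.0 for Ifi27l2a, 17.4 for Bst2 and 15.8 for Ifi27 to 0.199 for Zbp1, 0.151 for Oas1g, 0.146 for Mx1 and 0.0280 for Oas3. Isg15 (3.66) and Oas1a (1.07), which passed in METTL3 against chow, were in the middle and lower part of that order. Reads of the neighbours Parp9 and Dtx3l, whose transcripts overlap, cannot be told apart where the strand setting of the counting is unknown.

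The rest of the interferon pathway was read from a list of 42 genes, of which 32 were tested. None of the 10 ligand genes, including Ifnb1, Ifna4 and Ifng, had a count in any of the 11 libraries. That allows a level of up to 0.155 to 0.269 CPM, the worth of 3 counts in a library, for counting error only. No receptor gene passed in any comparison (edgeR, 6 tested), and 1, Ifngr1 in METTL3 against chow, had an unadjusted p under 0.05. Ifnar1 had means of 28.7 CPM on chow (31.8, 35.8 and 18.6 CPM in replicates 1 to 3), 27.2 CPM in HFD+STZ and 27.3 CPM in METTL3. Ifngr1, a chain of the interferon gamma receptor, had means of 51.9, 67.2 and 85.9 CPM (METTL3 against chow 0.73, SE 0.19, edgeR adjusted p = 0.0563). Without chow replicate 3 the median of the receptor genes was -0.25 in HFD+STZ against chow and -0.39 in METTL3 against chow, with 0 called by edgeR. At an unadjusted p under 0.05, 1 lay lower in the former, and 2 lower and 1 higher in the latter. In those fits 9.93% and 22.4% of all genes had such a p in either direction. DESeq2 called Ifngr1 higher in METTL3 than on chow.

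In HFD+STZ against chow 0 of the 32 tested genes passed by edgeR or DESeq2, with 0 at an unadjusted p under 0.05 by edgeR, where 12.1% of all genes were. It was 4 lower at an unadjusted p under 0.05, 0 called and a median of -0.17 when chow replicate 3 was left out. In that fit 9.93% of all genes had such a p in either direction. With all libraries their median log2 fold change was -0.09, where that of the interferon-stimulated genes was -0.47. In METTL3 against HFD+STZ 0 passed by either tool, with 1 higher and 4 lower at an unadjusted p under 0.05 by edgeR. Of all genes 5.43% were higher and 3.63% lower at that limit. In METTL3 against chow 2 fell and 0 rose, where 1.37% of all genes tested fell and 1.82% rose past the threshold. Irf1, a transcription factor downstream of interferon gamma, fell from 34.4 to 17.01 CPM (-1.02, SE 0.22, edgeR adjusted p = 0.0357), and Irf5, a factor of myeloid cells, from 4.95 to 1.80 CPM (-1.45, SE 0.33, edgeR adjusted p = 0.0394). With the code range as a covariate 0 passed, with 1 higher and 5 lower at an unadjusted p under 0.05, where 14% of all genes were in either direction. Without chow replicate 3 edgeR called 5 lower, Irf1, Irf5, Tlr9, Tmem173 and Traf3, where 4.92% of all genes passed. With all 11 libraries DESeq2 called 5 lower, Irf1, Irf5, Irf8, Tlr9 and Tmem173, and 1 higher, Ifngr1. By DESeq2 10.2% of all genes passed.

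Markers of cell types were read beside these genes. In HFD+STZ against chow the median log2 fold changes of endothelial, fibroblast and neutrophil markers were -0.11, -0.27 and 2.10, and edgeR called 0 of them. Of 5 tested neutrophil markers 3 lay higher at an unadjusted p under 0.05, where 5.58% of all genes did. By the mean of centred log2 CPM they lay at 0.0077, 2.39, 2.32 and -0.99 in HFD+STZ replicates 1 to 4. In METTL3 against HFD+STZ their median was -2.05, with 0 called by edgeR and 3 lower at an unadjusted p under 0.05, where 3.63% of all genes were. Of 14 macrophage markers 13 were below 0 in HFD+STZ against chow, 0 passed (edgeR, 5 lower at an unadjusted p under 0.05, and 0 by DESeq2), and their median was -0.65, or -0.38 without chow replicate 3. Of all genes 6.53% lay lower at an unadjusted p under 0.05. In METTL3 against chow all 14 markers were below 0 and 4 fell past the threshold, Csf1r, C1qa, C1qc and Fcgr1, where 1.37% of all genes tested did. Those calls were 3 without chow replicate 3, 8 with DESeq2 and 0 with the code range as a covariate, where 10 lay lower at an unadjusted p under 0.05. In those fits 4.92%, 10.2% and 0.00673% of all genes passed. With the code range 14% of all genes had an unadjusted p under 0.05 in either direction. In METTL3 against HFD+STZ all 14 were below 0 with 0 called by edgeR and 1, C1qa, by DESeq2. The summed macrophage level was 474 to 944 CPM on chow, 298 to 706 CPM in HFD+STZ and 207 to 353 CPM in METTL3. The ranges of METTL3 and HFD+STZ overlapped, and the interferon-stimulated genes had a median of 0.12 in that comparison. In whole hearts, fewer macrophages and less of an mRNA per cell cannot be told apart, and the part of macrophage content in the levels of Isg15, Oas1a and the other members was not tested. Endothelial markers summed to 885 to 1055 CPM on chow, 788 to 1203 CPM in HFD+STZ and 1038 to 1317 CPM in METTL3, and fibroblast markers to 1054 to 1299, 716 to 1569 and 996 to 1500 CPM.

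Lymphocyte markers were near the limit of detection, at 0.529 to 4.20 CPM summed over 10 genes, with Nkg7 at 0 in METTL3. Of markers of plasmacytoid dendritic cells, a source of type I interferon, 1 of 6 was tested, Cox6a2, a gene that muscle also expresses, and Ly6d and Klk1 were at 0 in METTL3. Neutrophil markers summed to 5.39 to 6.92 CPM on chow, 3.35 to 39.8 CPM in HFD+STZ and 2.19 to 8.62 CPM in METTL3, with Ly6g at 0 on chow and in METTL3.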

How the data were processed

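Whole-heart RNA of 11 libraries was depleted of ribosomal RNA and sequenced, per the labels' protocols. Per the file headers, the authors deposited a table of gene-level counts, all whole numbers. FastQC, Salmon and the mm10 build are named in the submitters' processing notes. Versions, annotation, strand setting and the handling of shared reads are not stated there. Gene coordinates and lengths are the authors' own. In all, 0 columns of sample values were left unused.

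Groups came from the titles. For the counts, edgeR 4.0.16 was used (R 4.3.3), with TMM scaling, filterByExpr (minimum count 10, minimum total 15), group means of all 11 libraries, the quasi-likelihood test and Benjamini-Hochberg adjustment (14862 genes). The SE of a log2 fold change is its size divided by the root of F. List levels per library used log2 CPM with a prior count of 2. Intervals cover counting error and the modelled spread. The procedure was tested on simulated counts. No pair of libraries within a group agreed within sampling noise.

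The members and gene lists were chosen with earlier results of these data known. Values in every library are given for members past the threshold, for the 6 with the smallest p in each comparison, and for 14 representatives of the roles. Other members are given by counts, ranges or fold changes. The values of 1 gene of the pathway list, counted in its totals, are not reported here. Dtx3l, Oasl2 and the pair sums were singled out after their values were seen. Shared words of 31 bases were counted in GENCODE M21 transcripts, on both strands. Alternatives were DESeq2 1.42.0, other scalings and filters, only the groups compared, a replicate block, the code range as covariate, codes 25 to 33 alone, and leaving out libraries.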

Additional observations from a re-analysis of the deposited data

Results flagged for a closer look

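In groups of 4, a library was marked when its gap to the nearest other library took up more than 0.83 of the range of its group (Dixon's 95% limit). Gaps and ranges were taken in log2 CPM with a prior count of 2, while the values below are CPM. Of 90 groups of members 9 were marked, or 10%. The limit marks about 1 in 20 independent groups, but these groups share the same libraries, so no excess can be read from that share. METTL3 replicate 1 was low in 4 members. It was at 2.51 CPM for Ifit1, with the other METTL3 libraries at 6.77 to 7.89 CPM, and at 9.79 CPM for Stat2, with the others at 17.05 to 18.9 CPM. It was at 13.1 CPM for Ifi27 (others 22.8 to 24.2 CPM) and at 15.7 CPM for Xaf1 (others 27.3 to 30.4 CPM). In HFD+STZ, replicate 1 was high for Oas1g, at 0.838 CPM (others 0.122 to 0.182 CPM), and low for Irf7, at 5.64 CPM (others 9.91 to 10.5 CPM). HFD+STZ replicate 2 was low for Eif2ak2, at 5.72 CPM (others 9.80 to 10.1 CPM). METTL3 replicate 4 was high for Mx2, at 5.11 CPM (others 1.67 to 1.88 CPM), and METTL3 replicate 2 for Parp14, at 36.4 CPM (others 24.4 to 25.6 CPM).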

How the results depend on the processing

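The median log2 fold change of the members kept its direction in all alternatives run and moved by less than the spread between replicates. That spread, the pooled SD of the list level within groups, was 0.25. In METTL3 against HFD+STZ the median itself was 0.12, so there the limit could not tell a stable value from one near 0. Leaving out a library in turn gave -0.59 to -0.37 in HFD+STZ against chow, 0.02 to 0.29 in METTL3 against HFD+STZ and -0.51 to -0.26 in METTL3 against chow. Counts of calls moved, and the cause was not tested. In HFD+STZ against chow, 1 member and 25 genes passed. It was 3 members and 307 genes with DESeq2, 5 and 190 with no filter, 0 and 0 with only the groups compared, 0 and 1 with the code range as a covariate, and 2 and 493 without chow replicate 3 and HFD+STZ replicate 1 together. A minimum count of 30 gave 45 genes, and leaving out a library gave 0 to 2 members and 1 to 215 genes. In METTL3 against chow, 2 members and 475 genes passed. It was 4 and 1509 with DESeq2, 4 and 747 with no filter, 0 and 54 with only the groups compared, 0 and 1 with the code range, and 4 and 1258 without both libraries. Leaving out a library gave 0 to 4 members and 34 to 750 genes. In METTL3 against HFD+STZ, 0 members and 0 genes passed. DESeq2 gave 139 genes, leaving out both libraries 2 members and 403 genes, and leaving out a single library 0 members and 0 genes.

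The replicate numbers did not pair the libraries (correlation of deviations -0.23 to 0.16 in 10 same-number pairs, -0.19 to 0.22 in 30 others). With the replicate block 0 members passed in each comparison, and 2, 0 and 5 genes passed in HFD+STZ against chow, METTL3 against HFD+STZ and METTL3 against chow.

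Some log2 fold changes changed sign, of which those of Mx1 were far from 0 (-1.06 in METTL3 against chow and 0.49 in METTL3 against HFD+STZ with all libraries). In HFD+STZ against chow, Rsad2 was -0.17 with the code range, and leaving out a library gave -0.084 to 0.44 for Rsad2 and -0.59 to 0.035 for Adar. In METTL3 against HFD+STZ, Stat2 was -0.0060 with DESeq2, -0.0058 with DESeq2 size factors, -0.020 with upper-quartile scaling, -0.022 with no filter, -0.011 without both libraries and -0.097 within codes 25 to 33. Isg15 was -0.079 with the replicate block, -0.015 with the code range and -0.25 within codes 25 to 33. Ifit3 was -0.0021 with the replicate block and -0.17 within codes 25 to 33, Irf9 0.0077 with the replicate block and Irf7 0.0097 with the code range. Leaving out a library gave -0.29 to 0.30 for Isg15, -0.057 to 0.18 for Oas1a, -0.078 to 0.19 for Stat2, -0.19 to 0.43 for Ifit3, -0.31 to 0.27 for Irf7, -0.14 to 0.13 for Irf9, -0.40 to 0.052 for Bst2, -0.039 to 0.24 for Eif2ak2, -0.19 to 0.022 for Adar and -0.92 to 1.78 for Mx1. In METTL3 against chow, Mx1 was 0.21 and Eif2ak2 0.013 with the code range, and Ddx58 was -0.11 without both libraries. Leaving out a library gave -0.11 to 0.30 for Ddx58, -0.36 to 0.019 for Eif2ak2 and -0.51 to 0.064 for Irf7. Few counts limit Mx1, Oas1g, Oas3 and Zbp1, and 3 chow libraries, with replicate 3 apart, limit every comparison with chow.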
